A study of Mus musculus with 3 samples.

Results

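The goblet-like cells of conventional mouse small intestinal organoids are described here from 1 Seq-Well library, in which single cells and barcoded beads are paired in microwells and transcripts are counted as unique molecular identifiers (UMIs). Members were chosen by the share of their UMIs on 4 genes, Fcgbp, Tff3, Agr2 and Guca2a, among cells with 1000 to under 8000 UMIs, at least 400 genes and under 8% of UMIs on genes whose symbol starts with Defa. The 100 cells with the highest share were taken from 2274 eligible cells, which is 4.4% of them, out of 2651 ENR cells and 6249 cells in the whole merged table. For its experiments in general the paper names proximal small intestine of C57BL/6 mice, of both sexes and 3 to 6 months old. Its in vivo reference cells came from the ileum. The organoids of this library were grown from crypts of 1 donor, whose sex the paper does not name. They were kept as stem cell-enriched cultures in ENR+CV, and were then held for 6 days in ENR (EGF, noggin and R-spondin 1). The 2 other libraries were ENR+CD, which adds the GSK3 inhibitor CHIR99021 and the Notch pathway inhibitor DAPT, and ENR+CV, which adds CHIR99021 and the histone deacetylase inhibitor valproic acid. Each condition was 1 array with cells from 6 wells and 1 donor, so there is no replicate, no p-value was computed, and every interval below covers counting error only.

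Goblet cells are the mucus-secreting cells of the intestinal epithelium. They arise from crypt progenitors that escape Notch signalling and express the transcription factor Atoh1, as do Paneth cells and enteroendocrine cells, and Spdef promotes their maturation. They fill with granules of the gel-forming mucin Muc2, which is folded and cross-linked in the endoplasmic reticulum (ER), heavily O-glycosylated in the Golgi and released with trefoil peptides and other small proteins. Paneth cells sit at the crypt base and release antimicrobial defensins and lysozyme.

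All 2651 merged ENR cells were found with identical counts in the table of the ENR sample. The table attached to the ENR+CV sample held the 2506 cells that the merged table names ENR+CD, and that attached to the ENR+CD sample the 1092 named ENR+CV, so conditions are given here by the merged table's names. The ENR library shared 1 barcode with ENR+CD and 0 with ENR+CV. The goblet-like cells held 186455 UMIs in all, with a median of 1601.5 UMIs and 834 genes per cell, against 1547 UMIs and 840 genes in the 2174 other eligible ENR cells. Mitochondrial genes took 13.2% ± 6.93 of UMIs (SD over 100 cells) in goblet-like cells and 17.7% ± 9.60 (SD over 2174 cells) in the others, and ribosomal protein genes took 11.2% and 11.1%; the part of the mitochondrial share in the results was not tested. The median read count per UMI was 14.5 and 15.2. Scrublet marked 6 of 2545 ENR cells as doublets, none of them a member.

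The 4 ranking genes give the members their definition, and their levels are a description only. Fcgbp (chr7:28071236-28120862, + strand) encodes an IgG Fc-binding mucus protein. Tff3 (chr17:31125306-31129646, - strand) encodes the intestinal trefoil peptide, Agr2 (chr12:35992907-36004087, + strand) an ER protein disulfide isomerase needed for Muc2 assembly, and Guca2a (chr4:119637704-119639471, + strand) the hormone precursor of guanylin; positions are from GENCODE vM21 on GRCm38, which is mm10. The summed share of the 4 genes ranged from 1.07% to 5.45% of a member's UMIs with a median of 1.46%, against a median of 0.134% in the other eligible cells. The lowest member had 15 such UMIs of 1405 and the first cell left out had 17 of 1595, so that the shares on either side of the limit were 1.068% and 1.066%. The members ranked lowest are thus not set apart from the cells just below them.

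The 4 genes were unevenly spread over the members. A UMI of all 4 was found in 62 members, of 3 in 31, of 2 in 6 and of 1 in 1. Tff3 was found in 99 members, Agr2 in 93, Guca2a in 84 and Fcgbp in 78. Tff3 gave most of the ranking UMIs in 61 members, with 0% to 2.14% of a member's UMIs and a median of 0.827%. Fcgbp ranged from 0% to 1.30% with a median of 0.111%, and Agr2 from 0% to 2.15% with a median of 0.224%. In CPM, the UMIs of a gene per 1000000 UMIs of the group, Tff3 stood at 9563 in goblet-like cells and 1149 in the others, Agr2 at 4162 and 408, Guca2a at 2301 and 268, and Fcgbp at 2269 and 147.

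**Figure D1:**
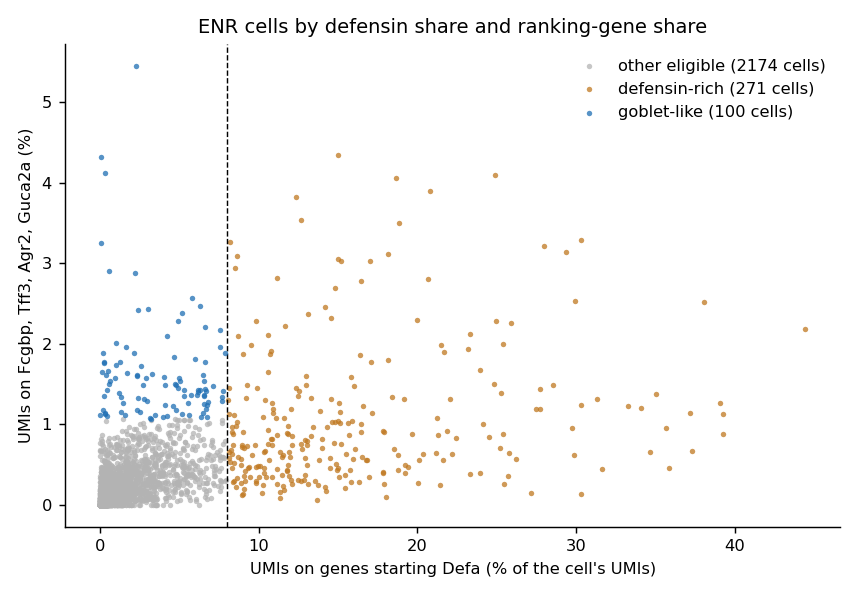
Each point is 1 ENR cell, with the percent of its UMIs on genes starting Defa on the x axis and on the 4 ranking genes on the y axis; the dashed line marks the 8% limit, goblet-like cells are blue, other eligible cells grey and defensin-rich cells orange. Goblet-like cells span defensin shares from 0% to 7.88%, and 95 of the 271 defensin-rich cells reach the ranking-gene share of the lowest member.

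Genes other than the ranking genes and the Defa genes were compared between the summed UMIs of the 100 goblet-like cells and of the 2174 other eligible ENR cells. A gene was measured where the mean of both CPM values was at least 50, and was called where the ratio was at least 2 with separate exact Poisson 95% intervals. A gene under 50 CPM in the other cells was thus measured only if it was higher in the goblet-like cells. Of 3216 measured genes, 83 were called higher (2.58%) and 40 lower (1.24%), and the median log2 ratio of all measured genes was -0.04. Since the cells were chosen by genes of the same counts, these are descriptions of the chosen cells. Of the 83 higher genes, 75 had UMIs in at least 10 members, and 49 stayed at 2-fold or more once the member with most UMIs of the gene was left out. Of the 40 lower genes, 27 rested on 10 or fewer UMIs in the goblet-like cells.

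Secreted goblet products led the higher genes. Of 17 listed products, 8 were measured and all 8 were called higher, with a median log2 ratio of 3.03 (exact interval 1.66 to 4.06). Another 6 of the 17 had no UMI in any member. In the other cells Clca3, Zg16, Tpsg1, Muc2, Ccl9 and Ccl6 stood at 7.07, 13.0, 13.7, 24.0, 42.4 and 43.4 CPM. These products were thus measured only through their level in the goblet-like cells, which set the direction of their ratios. Spink4 and Klk1 were above 50 CPM in the other cells. Spink4, a Kazal-type protease inhibitor (chr4:40920052-40931395, + strand), was found in 97 members and stood at 18037 CPM against 2512, a ratio of 7.18 (95% interval 6.91 to 7.46). In single members Spink4 took from 0% to 4.77% of UMIs with a median of 1.52%, and its median in the other cells was 0.146%. Muc2 (chr7:141690340-141754693, + strand) had 36 UMIs in 22 members, or 193 CPM against 24.0, a ratio of 8.06 (5.36 to 11.9). The chemokine gene Ccl9 had 80 UMIs in 35 members and a ratio of 10.1 (7.68 to 13.2). These 3 products thus differed far more in how many members held a UMI than in their ratios.

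The products Clca3 and Zg16 were met in few members. Clca3, the table's name for the mucus-processing protein now called Clca1 (chr3:145003817-145032776, - strand), had 22 UMIs in 8 members, or 118 CPM against 7.07, a ratio of 16.7 (9.20 to 29.7). Zg16, a mucus lectin that binds bacteria (chr7:127050156-127087328, - strand), had 26 UMIs in 6 members, with a ratio of 10.7 (6.47 to 17.3). Of these UMIs 11 lay in the member ranked 68, with a Defa share of 7.69%, and 9 in the member ranked 81. The paper names Zg16 among genes enriched in in vivo Paneth cells over organoid Paneth-like cells. No member held UMIs of both Clca3 and Zg16. Muc2 was found in 4 of the 8 members with Clca3 and in 1 of the 6 with Zg16, and 69 members held none of the 3 genes. The 31 members with at least 1 of them had a median of 2164 UMIs, and the 69 without had 1412, so depth moves with these counts, and its part in them was not tested. The protease gene Tpsg1 had 21 UMIs in 18 members and a ratio of 8.23 (4.75 to 13.7), the chemokine Ccl6 a ratio of 3.46 (2.24 to 5.17) in 20 members, and the kallikrein Klk1 3.15 (2.15 to 4.50) in 26 members.

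After every cell was thinned to 1000 UMIs, a Spink4 UMI remained in 96 of 100 goblet-like cells and in 64 of 100 enterocyte reference cells, which are the eligible cells with the highest share of Fabp1, Apoa1, Apoa4 and Apoc3. In summed level these stood at 18037 and 2612 CPM, and the second is the level at which Spink4 was met in cells that should lack it. Their median depth before thinning was 1446 UMIs, against 1601.5 in the goblet-like cells. For Muc2 the thinned shares were 12% (Clopper-Pearson interval 6.36% to 20%) and 1% (0.0253% to 5.45%), for Clca3 6% (2.23% to 12.6%) and 0 of 100 cells, which allows up to 3.62% by the same interval, and for Fcgbp 69% and 14%. For Zg16 they were 4% (1.10% to 9.93%) and 1%, which overlap.

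Of 23 other goblet markers, 7 were measured, 4 were called higher and 0 lower, with a median log2 ratio of 1.30. The transporter gene Slc12a8 stood at 129 CPM against 25.3, a ratio of 5.08 (3.12 to 7.95). Smim6 had a ratio of 3.07 (1.92 to 4.71), Smim14 2.58 (1.71 to 3.77) and Tpd52, a vesicle traffic protein found in 58 members, 2.46 (2.02 to 2.97). Slc12a8 and Smim6 (42.0 CPM) were under 50 CPM in the other cells, so the measuring limit set the direction of their ratios. A further 14 markers had UMIs in members but stayed under the minimum level, and in 11 of these the ratio's interval lay above 1. Chosen after their values were seen, examples were Rep15, with 16 UMIs in 13 members and a ratio of 15 (7.50 to 29.3), and Bcas1, with 10 UMIs in 8 members and 21.4 (8.13 to 55.4).

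Sugar-chain genes were higher in part. Of 14 measured genes for mucin O-glycosylation and sugar supply, 4 were called higher and 0 lower, with a median log2 ratio of 0.62 whose interval, -0.30 to 1.14, includes 0. The branching enzyme Gcnt3 had 27 UMIs in 21 members and a ratio of 2.85 (1.83 to 4.25). C1galt1c1, the chaperone of core 1 synthase, had 2.77 (1.82 to 4.08), the initiating enzyme Galnt3 2.21 (1.30 to 3.54) and Tsta3, of GDP-fucose synthesis, 2.20 (1.56 to 3.02). Gmds, of the same pathway, stood at 268 CPM and 239. Galnt3 was under 50 CPM in the other cells (46.1), so the measuring limit set its direction.

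The ER list stood higher by a smaller amount than the secreted products, against the other eligible cells. Of 43 measured genes for translocation, folding and export, 41 had a ratio above 1, 8 were called higher and 0 lower, and the median log2 ratio was 0.58 (0.42 to 0.74). Among the 8, Fkbp11 and Sdf2l1 were under 50 CPM in the other cells (43.6 and 45.6), so the measuring limit set their direction. The list's summed level was 14261 CPM in goblet-like cells and 9461 in the others. Against the defensin-rich cells, those with 8% or more Defa UMIs, none of 44 measured ER genes was called, and the median log2 ratio was 0.31, beside 0.41 over all genes measured there. The disulfide isomerase Txndc5 had 64 UMIs in 32 members and a ratio of 4.01 (3.03 to 5.24), the reductase Dnajc10 3.17 (2.20 to 4.45) and the cargo receptor Tmed3 2.69 (1.72 to 4.05). The abundant chaperones differed less. Hspa5 stood at 1019 CPM against 633, a ratio of 1.61 (1.38 to 1.86), P4hb at 821 against 467, and Hsp90b1 had a ratio of 1.29 (1.11 to 1.48). None of the 4 measured regulators of the unfolded protein response was called, and Xbp1 stood at 236 CPM against 150, a ratio of 1.57 (1.13 to 2.13).

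Genes of the secretory fate decision were rare in these counts. Atoh1 had 14 UMIs in 9 members, or 75.1 CPM against 4.11, a ratio of 18.3 (8.41 to 38.9), but its mean level was below 50 CPM and it was not among the measured genes. Spdef had 8 UMIs in 8 members with a ratio of 4.0 (1.63 to 8.54), also below the minimum. Foxa3 was the 1 called of 3 measured factors on this list, at 102 CPM against 49.7, a ratio of 2.05 (1.21 to 3.28), while Hes6 had 1.46 (0.988 to 2.09) and Sox9 1.08. With Foxa3 under 50 CPM in the other cells, the measuring limit set its direction. Of the Notch list, only Hes1 was measured. This Notch target was lower, with 13 UMIs in 12 members, 69.7 CPM against 149 and a ratio of 0.467 (0.247 to 0.805). The ligand gene Dll1, under the minimum and chosen after its value was seen, had 12 UMIs in 9 members and a ratio of 3.10 (1.54 to 5.68).

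Since Atoh1 was met in these cells, genes that stood higher together were looked up for the E-box letters CAGCTG, a core bound by factors of the Atoh1 class, in the 250 bases before the RefSeq start (GRCm38.p6). The letters read the same on both strands. Promoters of 2 ranking genes and of the 2 products Muc2 and Ccl9 hold a match, and are shown since they are the goblet genes in which the letters were found; capitals mark the match and each runs 5′ to 3′ on the gene's strand.
Fcgbp, chr7:28071001-28071060, + strand: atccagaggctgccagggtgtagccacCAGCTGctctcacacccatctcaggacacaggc
Guca2a, chr4:119637499-119637558, + strand: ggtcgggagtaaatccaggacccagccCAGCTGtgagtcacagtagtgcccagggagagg
Muc2, chr7:141690201-141690260, + strand: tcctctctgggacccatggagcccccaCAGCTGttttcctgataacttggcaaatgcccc
Ccl9, chr11:83578806-83578865, - strand: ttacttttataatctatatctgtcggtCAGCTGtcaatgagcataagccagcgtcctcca
The match begins 208, 206, 112 and 202 bases before the start. No match was found in the windows of Agr2, Rnase1, Tpsg1, Mmp7, Rnase4, Slc12a8, Klk1, Ccl6 and Atoh1, and the letters were not looked up for Tff3, Spink4, Clca3, Zg16, Selm and Clps. Of 57 called genes with a window, 6 (10.5%) held the letters, and of 27025 symbols 12.8% did, so the share in the called genes was near that of all promoters.

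**Figure D2:**
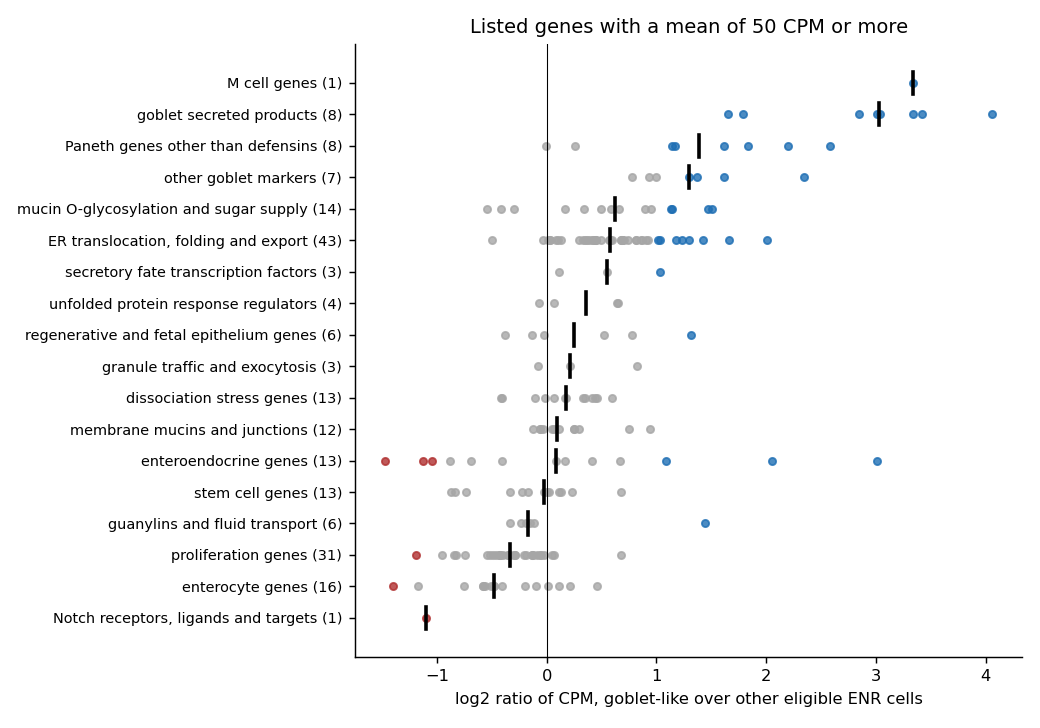
Each point is a measured gene of a list, at its log2 ratio of CPM in goblet-like over other eligible ENR cells; blue genes were called higher, red lower and grey neither, black bars are list medians and the number of measured genes is in brackets. Every measured secreted product lies above 1 on the log2 scale, most ER genes lie between 0 and 1, and Ccl9 alone stands for the M cell list. Most of the secreted products were measured only through their level in goblet-like cells.

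Paneth genes were also higher in the goblet-like cells. Of 8 measured Paneth genes other than defensins, 6 were called higher and 0 lower, with a median log2 ratio of 1.39 (-0.00 to 2.58). Among the 6, Pnliprp2 was under 50 CPM in the other cells (40.6), so the measuring limit set its direction. The defensin-processing protease Mmp7 had 193 UMIs in 56 members, 1035 CPM against 173 and a ratio of 5.98 (5.08 to 7.02). Colipase, Clps, had a ratio of 4.58 (4.06 to 5.16) in 81 members and the ribonuclease Ang4 3.57 (3.05 to 4.16) in 43. Lysozyme, Lyz1, stood at 3202 CPM against 1043 (ratio 3.07, 2.81 to 3.34) in 79 members and the lectin Itln1 at 2387 against 1080. Genes starting Defa took a median of 4.01% of UMIs in goblet-like cells, with 1.33% and 6.19% at the lower and upper quartiles, and 0.556% in the other eligible cells. The rule capped this share but did not rank by it.

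The table lists 13 further alpha-defensin genes under other names (RefSeq symbols starting Defa, such as Defa38 for Gm14851), which the 8% limit did not count. Their median share was 0.456% in goblet-like and 0.0948% in other eligible cells, and with them 9 members and 67 other cells would pass the limit. Of these genes 2 are among the 83 called, Gm14851 with a ratio of 2.03 and Gm15299 with 2.25. AY761184 and AY761185 are not among the 13 and were not counted by the limit either. They stood at 6381 and 1422 CPM in cells with 8% or more Defa UMIs, and AY761185 is among the 83 called, with a ratio of 2.44. Defensin genes are near-identical copies, so reads may have been split among them.

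Members were therefore split by their Defa share and set beside other eligible cells of the same share. There were 20 members under 1%, 30 from 1% to under 4% and 50 from 4% to under 8%. Members were 1.53%, 4.39% and 17.5% of the eligible cells in these ranges. Median depth in the members was 1872, 1366 and 1642 UMIs, and in the other cells of the same ranges 1632, 1468 and 1506.

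Among the ranking genes, whose levels the rule fixed in part and which are a description only, Fcgbp stood at 3995 CPM in the members under 1%, at 2453 from 1% to under 4% and at 1313 above. Agr2 stood at 6550, 5141 and 2388 CPM, and Tff3, the highest of the 4 in every range, at 8966, 10337 and 9371. A few members weighed heavily in these sums. Under 1%, 4 of the 20 members held 121 of the 172 Fcgbp UMIs, and in the middle range the member ranked 1 held 138 of the 283 Agr2 UMIs, without which Agr2 stood at 3019 CPM there. The median member had 0.191%, 0.179% and 0.0883% of its UMIs on Fcgbp and 0.440%, 0.196% and 0.187% on Agr2. Spink4, which the rule did not use, had medians of 0.676%, 1.13% and 1.94% and summed levels of 13449, 17804 and 20416 CPM. Muc2 stood at 256, 218 and 147 CPM with intervals that overlap, and at 104 in the middle range without the member ranked 1, which held 7 of the 12 UMIs.

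**Figure D3:**
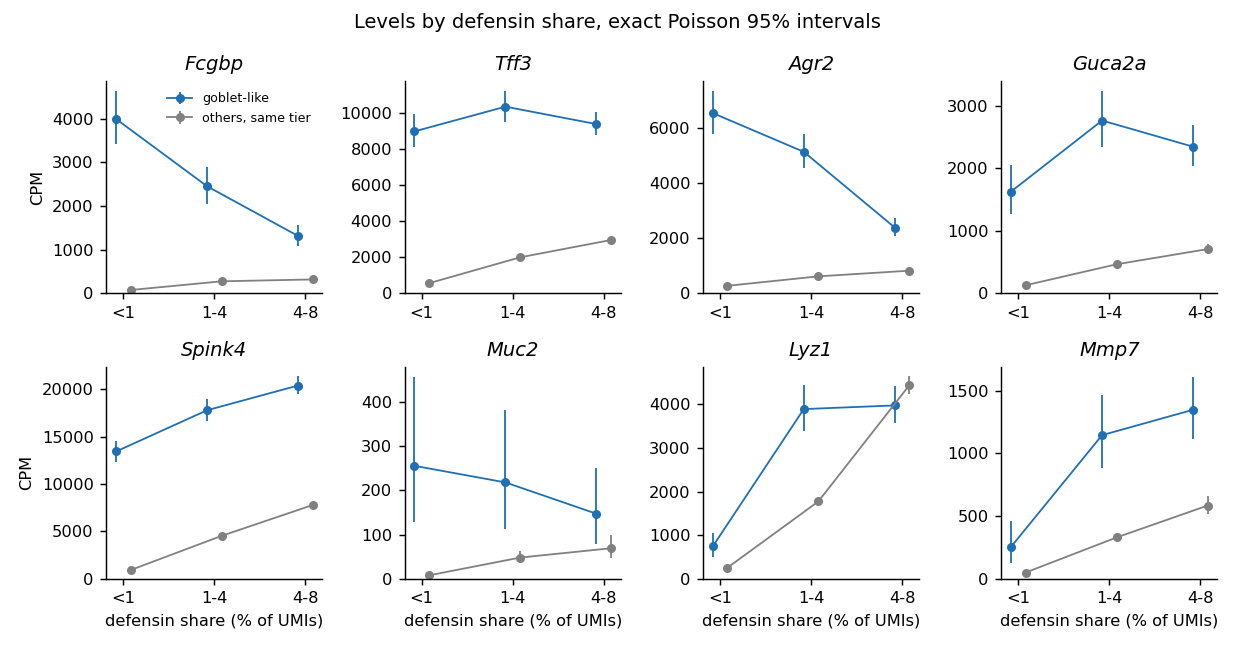
CPM of 8 genes (linear axes from 0) in goblet-like cells (blue) and in the other eligible cells (grey) by percent of UMIs on Defa genes, with exact Poisson 95% intervals. The summed Fcgbp and Agr2 levels of the goblet-like cells are lower at 4% to under 8% than under 1%. For Lyz1 the goblet-like cells lie above the other cells in the lower ranges, and the other cells reach their level at 4% to under 8%.

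The ratio to cells of like defensin share was largest where defensins were low. Under 1%, the secreted products summed to 14634 CPM against 1008, a ratio of 14.5, and from 4% to under 8% to 21865 against 8434, a ratio of 2.59. Their summed level was thus higher in both groups at the higher defensin share, and the fall is in the ratio. Muc2 had a ratio of 32.9 (14.4 to 70.9) under 1%, 4.55 (2.21 to 8.60) in the middle, where the member ranked 1 held 7 of its 12 UMIs, and 2.13 (1.02 to 4.23) above. The non-defensin Paneth genes had summed ratios of 2.73, 1.55 and 1.11. Lyz1 itself had a ratio of 2.94 (2.0 to 4.19) under 1% and 0.896 (0.797 to 1.0) from 4% to under 8%. In that upper range Itln1 had 0.915 (0.816 to 1.02). Mmp7 still had 2.31 (1.84 to 2.89) there, Clps 1.62 (1.38 to 1.90) and Ang4 1.44 (1.21 to 1.72). Under 1%, Ang4 had 1 UMI in the members and a ratio of 0.397 (0.00999 to 2.24). The ER list summed to ratios of 1.82, 1.61 and 1.19, and Hspa5 to 2.45, 1.78 and 0.978. The 83 higher genes had median log2 ratios of 1.58, 1.22 and 0.93, beside 0.12, 0.12 and 0.05 over all genes measured in each range, and 75, 74 and 69 of them had a ratio above 1. They were called in these same members, so ratios above 1 were largely set by that choice and are a description only.

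Set against the 271 defensin-rich ENR cells, those with 8% or more Defa UMIs, the goblet-like cells shared several of these products. Spink4 stood at 20405 CPM in defensin-rich cells, a ratio of 0.884 (0.850 to 0.919). Muc2 stood at 260 CPM there, a ratio of 0.742 (0.499 to 1.08) that includes 1, and Ccl9 at 361 (1.19, 0.904 to 1.55). Atoh1 stood at 41.8 CPM, with a ratio of 1.80 (0.850 to 3.67). The products that were higher in goblet-like cells were Clca3, at 118 against 9.5 CPM (12.4, 4.59 to 42), and Zg16, at 139 against 45.6 (3.06, 1.69 to 5.57). Both were under 50 CPM in the defensin-rich cells, so they were measured only through their level in the goblet-like cells, which set that direction. Both also rest on few members. The members ranked 6 and 30 held 7 each of the 22 Clca3 UMIs, and those ranked 68 and 81 held 11 and 9 of the 26 Zg16 UMIs. Of 2818 measured genes 105 were called higher (3.73%) and 29 lower (1.03%), around a median log2 ratio of 0.41 that the defensins' own share of UMIs moves.

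Of the ranking genes, Fcgbp and Agr2 had ratios of 2.75 (2.40 to 3.15) and 2.41 (2.18 to 2.65) against defensin-rich cells, and Tff3 and Guca2a 1.31 each. Klk1 and Ccl6, listed as goblet products, were lower in goblet-like than in defensin-rich cells, with ratios of 0.455 and 0.373. Of 13 measured Paneth genes, 10 were lower, among them Lyz1 (0.281), Itln1 (0.160) and Mptx2, a pentraxin with 1 UMI in the goblet-like cells and 274 in the defensin-rich. Outside the ranking genes, 8 of 8 measured products were higher in goblet-like than in other eligible cells. For all but Spink4 and Klk1 the measuring limit had set that direction. Against defensin-rich cells 2 of 8 were higher and 2 lower. There the label rests on few genes, met in few members and measured only through their level in goblet-like cells.

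**Figure D4:**
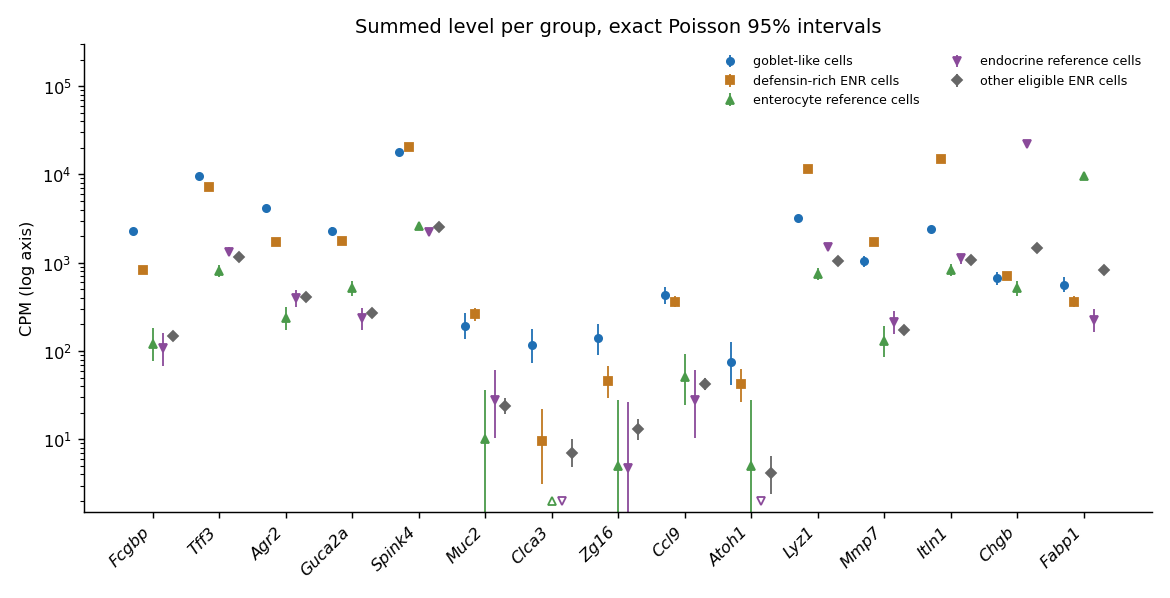
CPM (log axis) of 15 genes in goblet-like cells, defensin-rich cells, 100 enterocyte and 100 endocrine reference cells and all other eligible cells, with exact Poisson 95% intervals; open symbols at the bottom mark 0 UMIs. Goblet-like and defensin-rich cells lie together for Spink4, Muc2 and Ccl9 and apart for Clca3, Lyz1 and Itln1.

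Among enteroendocrine genes, single members decided the called hormones. Of 13 measured genes 3 were called higher and 3 lower. Ghrl, which encodes ghrelin, had 321 UMIs, but 304 of them lay in the member ranked 89, and without that member the ratio went from 8.08 to 0.431. Nts, neurotensin, had 97 UMIs with 87 in the member ranked 20, and without it the ratio went from 4.16 to 0.432. Sst, somatostatin, had 18 of 23 UMIs in 1 member, and its ratio went from 2.13 to 0.469. The Ghrl-rich member entered by 15 Tff3 UMIs alone, with no UMI of Fcgbp, Agr2, Guca2a or Spink4, and the Nts-rich member by 21 Agr2 UMIs and 1 of Fcgbp. These 2 were the members with at least 5% of their UMIs on 13 hormone genes. Chgb, a granin of endocrine granules, stood at 665 CPM against 1450 (ratio 0.459, 0.381 to 0.548), Chga at 193 against 311, and Gip at 231 against 640. These lower sums did not come with fewer cells holding a UMI. Chgb was found in 35% of members and 35.8% of the others, Gip in 17% and 17.4%, and Chga in 23% and 13.5%.

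Absorptive, stem and cycling genes were near or below the level of the other cells. Of 16 measured enterocyte genes 0 were called higher and 1 lower, Apoa4, with 8 UMIs and a ratio of 0.379 (0.163 to 0.753), and the median log2 ratio was -0.48 (-0.58 to 0.01). Fabp1, a fatty acid-binding protein, stood at 563 CPM against 833 and Fabp2 at 1191 against 1099. Of 13 measured stem cell genes none was called, with Lgr5 at 129 against 127 CPM and Olfm4 at 510 against 912, a ratio of 0.559 (0.451 to 0.685). Of 31 proliferation genes 0 were called higher and 1 lower, Rrm1, with a median log2 ratio of -0.33 (-0.44 to -0.14), and Mki67 stood at 354 against 409 CPM. Epcam, the epithelial adhesion protein, stood at 1148 and 1256 CPM.

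Markers of other cells were at or near 0. The 15 tuft cell genes in the table summed to 4 UMIs in the goblet-like cells, with 11 at 0 and Dclk1 among them, and the 14 stromal and endothelial genes to 2 UMIs. Of 18 immune genes 16 were at 0, and the 24 UMIs were of Lyz2, which is also on the Paneth list, and Itgam. Of 13 measured genes of the dissociation response none was called, with a median log2 ratio of 0.17. Guca2b, the uroguanylin gene, was the 1 called of 6 measured genes for guanylins and fluid transport, at 333 CPM against 122 (2.72, 2.06 to 3.55), while the chloride channel Cftr stood at 123 and 133 and the guanylin receptor Gucy2c at 75.1 and 85.6. Of 6 regenerative and fetal genes 1 was called higher, Sprr2a3 with 2.48 (1.46 to 3.99), of 12 membrane mucin and junction genes none, and of 3 granule traffic genes none. Sprr2a3 was under 50 CPM in the other cells (41.1), so the measuring limit set its direction.

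Of the 83 higher genes 47 were on no list. Among these, Rnase1, a secreted ribonuclease, had 68 UMIs in 29 members and a ratio of 8.41 (6.28 to 11.2), Rnase4 137 UMIs in 53 members and 5.32 (4.39 to 6.42), and Ang 25 UMIs in 20 members and 3.79 (2.38 to 5.81). Against defensin-rich cells the ratios of Rnase1, Rnase4 and Ang were 1.18 (0.874 to 1.57), 1.46 (1.18 to 1.80) and 0.735 (0.454 to 1.15), none of them called. Rnase4 and Ang overlap on the same strand, so their reads may not be told apart. Selm, a selenoprotein of the ER, had a ratio of 5.82 (4.49 to 7.47) in 36 members, and Fxyd3, a modulator of the sodium pump, 4.08 (3.34 to 4.94) in 50. Fam46c had 17 UMIs in 11 members and 4.08 (2.28 to 6.87), and 5330417C22Rik 26 UMIs in 18 members and 3.64 (2.31 to 5.52). Rnase1, Ang, Fam46c and 5330417C22Rik were under 50 CPM in the other cells, so the measuring limit set their direction. The lowest ratio was that of Afp, alpha-fetoprotein, with 4 UMIs against 1385, or 21.5 CPM against 316, a ratio of 0.0679 (0.0185 to 0.174). Pdhb and Ppat followed with 4 UMIs each and ratios of 0.248 and 0.263, and of the 10 lowest ratios 9 rested on 4 to 8 UMIs, Gip with 43 being the exception.

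The same ranking was then read in cells the rule had not used. In the ENR library, 2350 barcodes of 500 to under 1000 UMIs met the defensin limit and the 103 with the highest share were taken, with 1.11% to 6.05% of UMIs on the ranking genes. Of these, 1 lay within 1 base of a member's barcode. Of the 83 higher genes, 67 had a ratio above 1 there, 31 a ratio of 2 or more and 22 were called, against 51.9% and 7.85% of all 3083 measured genes with ratios above 1 and of 2 or more, and 2.43% called higher. The 22 are 26.5% of the 83 and 29.3% of the 75 called in these barcodes. Of the 40 lower genes, 24 had a ratio below 1.

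Spink4 had a ratio of 4.89 (4.58 to 5.21) in these barcodes, Ccl9 6.76 (4.46 to 10), Rnase1 5.95 (3.87 to 8.92), Mmp7 5.59 (4.30 to 7.19) and Lyz1 3.47 (3.05 to 3.93). Zg16, with 5 UMIs, had 9.20 (2.54 to 28.1) and Muc2, with 9 UMIs, 2.84 (1.25 to 5.70). Clca3 had 2 UMIs and a ratio of 3.68 (0.40 to 16.5), and Slc12a8 1.54 (0.306 to 4.81). Ghrl was higher again, with 198 UMIs of which 159 lay in 1 barcode that held 21 Tff3 UMIs and none of Fcgbp or Agr2. The barcodes come from the same array as the members and are not a replicate of the condition, and free RNA was not measured.

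Applied within ENR+CD, the ranking took 100 of 940 eligible cells, with 0.966% to 10.3% of UMIs on the 4 genes, from a library in which 1443 cells were defensin-rich. Of 81 ENR-higher genes with a ratio, 62 lay above 1 and 11 were called, beside 46.7% above 1 and 2.09% called of all 3539 measured genes. Zg16 stood at 1173 CPM against 15.5 in 19 cells, a ratio of 75.5 (50.4 to 117), with 57 of 215 UMIs in 1 cell. Clca3 stood at 649 against 15 in 19 cells, a ratio of 43.4 (28.2 to 69.1), with 67 of 119 UMIs in 1 cell. Muc2 had 5.33 (2.82 to 9.79), Spink4 3.23 (2.99 to 3.49), Ccl9 1.66 (0.627 to 3.74) and Lyz1 1.56 (1.46 to 1.67). The ENR goblet-like cells thus stood at 118 CPM of Clca3 and 139 of Zg16 where the cells taken from ENR+CD stood at 649 and 1173, in 1 library each.

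Within ENR+CV, 975 cells were eligible and 4 of them (0.410%) reached the share of the lowest ENR member, so the 100 cells taken, with a median share of 0.0909%, are not goblet-like by this rule. They held no UMI of Muc2, Clca3, Zg16 or Atoh1. In ENR+CD, 76 eligible cells (8.09%) reached that share, and in ENR the 100 members did (4.4%). These percentages are of eligible cells, and the Defa limit had left out 1443 cells of ENR+CD and 271 of ENR. They therefore do not compare how common such cells were in the 2 libraries. Of the ENR-higher genes with a ratio in ENR+CV, 46 of 72 lay above 1 and 7 were called, beside 47.0% above 1 and 0.957% called of all 3866 measured genes.

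**Figure D5:**
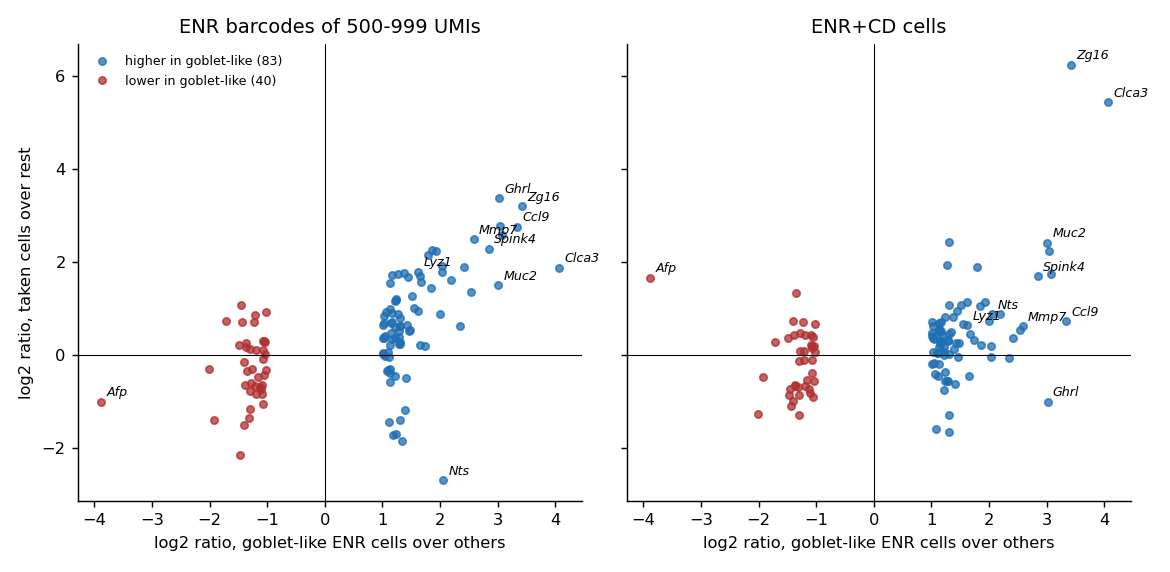
The 83 higher (blue) and 40 lower (red) genes at their log2 ratio in goblet-like ENR cells (x axis) and at the log2 ratio of the cells taken by the same ranking over the rest (y axis), in ENR barcodes of 500 to under 1000 UMIs (left) and in ENR+CD (right, where 81 higher genes have a ratio). Most blue points lie above 0 on the left, and Zg16 and Clca3 lie highest on the right.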

How the data were processed

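Seq-Well libraries of mouse intestinal organoids (ENR, ENR+CD, ENR+CV; 1 array each) were analysed. The deposited counts are whole-number UMI counts and read counts per gene and barcode; the authors mapped to mm10 and counted each UMI (8 bases) once per gene and cell barcode (12 bases), and the submitters' processing notes name bcl2fastq, STAR and Seurat, with tool versions not given in the sources used here. Cells were taken from the merged table of 23271 genes, and per-library tables served for barcodes under 1000 UMIs, reads per UMI and library identity.

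Counts were summed over cells and scaled to CPM, with a sum per group as depth, and have exact Poisson 95% intervals; ratios have exact binomial and shares Clopper-Pearson intervals, and PCR and capture errors are not covered. A sum of 0 was set to 3 UMIs for a bound. No block or test applied with 1 library per group. Scrublet (scanpy 1.11.5, expected doublets 6%, genes in at least 5 cells) was run on the eligible and defensin-rich cells, and no cell was removed. Sums, calls and intervals were tested on simulated data. Medians of lists have order-statistic intervals. List symbols Clca1 and Adgre1 were matched to Clca3 and Emr1 through RefSeq synonyms. Named genes were the ranking genes, the 20 highest and 10 lowest called ratios, the 4 most abundant measured genes of each of 21 lists, and 13 fixed genes; further called members of lists were named after their values were seen. Read counts of ENR+CD and ENR+CV were not used. The members, lists and markers were chosen with earlier results of these data known.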

Additional observations from a re-analysis of the deposited data

How the results depend on the processing

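No paired analysis was possible because each condition is 1 library, and leaving out a replicate was not possible for the same reason. The median log2 ratio of the goblet secreted products lay between 2.18 and 3.49 under all 19 alternatives, within its interval. Each alternative applied the minimum of 50 CPM anew, so products below it in the comparison cells entered only where higher in the chosen cells. A positive median was thus largely set by that limit. Of the alternatives 3, which leave out top members or hormone-rich members or count defensins under other names, were chosen after seeing the data. The 83 higher genes became 138 with the 50 highest cells, 42 with 200, 148 and 34 with a minimum of 20 and 100 CPM, 138 and 27 with a fold of 1.5 and 3, and 40 without each gene's top member. The 40 lower genes became 81 with the 50 highest cells, 13 with 200, 93 with a Defa limit of 16%, 171 without a limit, 21 with cells thinned to 1000 UMIs, 78 with cells of at least 1500 UMIs, 91 and 10 with a minimum of 20 and 100 CPM, 85 and 4 with a fold of 1.5 and 3, 68 by fold alone, and 113 without each gene's top member. The cause was not tested where cells were exchanged. Of the 83 genes 46 were also called with a Defa limit of 4%, 53 without one and 47 after thinning. Of the 100 members, 50 were kept at a limit of 4%, 47 without a limit and 70 when Tff3 was left out of the ranking.

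The log2 ratio of Ghrl turned to -1.16 with the 50 highest cells, -0.76 with a Defa limit of 16%, -0.10 without a limit, -1.61 without Tff3 in the ranking, -1.64 in cells of at least 1500 UMIs, -1.21 without its top member and -1.21 without the 2 hormone-rich members. That of Nts turned to -2.20 without Agr2 in the ranking, -1.81 in cells of at least 1500 UMIs, -1.21 without its top member and -1.20 without the hormone-rich members. That of Itln1 turned to -0.10 with defensin-rich cells among the comparison cells. That of Sst, named after its values were seen and recomputed only without its top member, turned to -1.09. For the other genes named by the rule, no called direction turned, and of all values for genes named by the rule 1556 lay within the interval of the reported ratio and 218 outside it. Depth limits Clca3, Zg16, Atoh1 and Spdef, which rest on 8 to 26 UMIs.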

Other observations

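In the cells taken from ENR+CD, genes outside the product list led beside Zg16 and Clca3. The annexin Anxa10 stood at 109 CPM against 7.49, a ratio of 14.6 (6.90 to 31.9) in 13 cells, the glutathione transferase Gsta1 at 1375 against 165 (8.32, 7.0 to 9.89) in 33 cells, and the galectin Lgals3 at 246 against 36.3 (6.77, 4.51 to 10.1) in 13 cells. In the cells taken from ENR+CV, Reg4 had 72 UMIs in 8 cells and Neurog3, the endocrine progenitor factor, 47 UMIs in 4 cells, with ratios of 35.2 (21.9 to 58.5) and 14.2 (9.06 to 22.2).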
